A study of Mus musculus with 16 samples.

Results

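The *Ccr9*+ conventional cells described here are CD4+ IL-4 reporter cells of lung and mesenteric lymph node (MLN) with at least 1 unique molecular identifier (UMI, 1 counted mRNA molecule) of *Ccr9* and without the invariant T-cell receptor (TCR) alpha chain of natural killer T (NKT) cells. They are 518 of 4638 conventional cells, out of 4714 cells with a productive alpha and beta chain and 6319 barcodes in all. A cell was kept with more than 500 UMIs, more than 500 genes and under 7% mitochondrial UMIs, and 76 cells were set aside because 1 of their alpha chains joined a TRAV11 segment to TRAJ18. The members were selected on their *Ccr9* UMIs, and through these on depth, so *Ccr9* values are given as a description and the remaining genes carry the tests.

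The cells came from 4get mice on a C57BL/6 background, in which a green fluorescent protein follows transcription of *Il4*, infected under the skin with 500 larvae of the hookworm *Nippostrongylus brasiliensis* and taken on day 10. Lung and MLN of the same 2 mice, 13 weeks old at infection, were sorted for CD4 and the reporter, about 5000 cells a sample, and read with 10x 5′ gene expression and TCR libraries, so that each organ has 2 libraries, named lung 1 and 2 and MLN 1 and 2 after the mouse. A second run read reporter-positive CD4+ cells of the MLN and the lung-draining mediastinal node (medLN) of 2 further mice, 10 weeks old at infection, in 1 pool told apart by hashtag antibodies. No uninfected animals were among the samples used here, and every group carries the reporter. The reporter limits what the cells stand for: it lights up from the start of *Il4* transcription, which takes in early Th2 cells, follicular helper T cells and NKT cells beside mature Th2 effectors. Perfused lungs were digested with enzymes and cleared of debris on a gradient while nodes were pressed through a mesh, so organ and handling cannot be told apart in any comparison of lung with MLN. The 2 mice are the replicates, and p-values speak only for these samples. Where *Ccr9*+ and *Ccr9*- cells of a library are compared, the spread is that of their difference between mice. Its estimate rests mostly on values shared across genes, as given with the processing below.

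CCR9 is the receptor for CCL25, a chemokine made by the epithelium of the small intestine and by the thymus. Dendritic cells of the gut and its nodes make retinoic acid, which imprints CCR9 together with the integrin α4β7 (the products of *Itga4* and *Itgb7*) on the T cells they prime, and the pair directs effector cells into the small intestine. Th2 cells depend on the transcription factor GATA3, and those that reach tissues carry the IL-33 receptor ST2, the product of *Il1rl1*, and secrete IL-5 and IL-13.

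*Ccr9*+ cells made up 13.1% of the conventional cells in lung 1 (141 of 1079, 95% Clopper-Pearson interval 11.1 to 15.2%) and 8.09% in lung 2 (33 of 408, 5.63 to 11.2%). The share was 10.4% in MLN 1 (252 of 2417, 9.24 to 11.7%) and 12.5% in MLN 2 (92 of 734, 10.2 to 15.1%). The organs therefore overlapped, and lung 2 was the lowest library. These intervals, like all intervals below, cover counting error only. A member held a median of 3 *Ccr9* UMIs in lung 1, MLN 1 and MLN 2 and of 2 in lung 2, with a highest value of 21, 18, 17 and 23 in lung 1 and 2 and MLN 1 and 2. Cells with a single *Ccr9* UMI were 24.1% and 36.4% of the members in lung 1 and 2 and 31.3% and 20.7% in MLN 1 and 2.

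Depth moved with the selection. *Ccr9*+ cells had a median of 7815 UMIs against 6817.5 in *Ccr9*- cells of lung 1, 7424 against 5655 in lung 2, 5999.5 against 4895 in MLN 1 and 6371.5 against 4874 in MLN 2. When each cell was thinned to 2000 UMIs the *Ccr9*+ share was 7.79% and 4.50% in lung 1 and 2 and 6.80% and 8.85% in MLN 1 and 2. As a background, 2 of 54 barcodes without a TCR and with myeloid markers had a *Ccr9* UMI (3.70%, exact interval 0.452 to 12.7%), an interval that takes in the thinned shares. The part of free RNA in the cells with a single *Ccr9* UMI was not tested. Cells with extra TCR chains, a sign of doublets, were 4.96% of *Ccr9*+ and 2.99% of *Ccr9*- cells in lung 1, 3.03% and 1.87% in lung 2, 10.3% and 6.93% in MLN 1 and 9.78% and 8.10% in MLN 2, and their part in the results was measured by leaving them out.

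The cells were checked against the markers of the label. *Cd3e* UMIs were found in 100% of *Ccr9*+ cells of lung 1, MLN 1 and MLN 2 and in 97.0% in lung 2, and *Cd4* UMIs in 75.2%, 75.8%, 80.2% and 80.4% of those of lung 1 and 2 and MLN 1 and 2. *Il4* UMIs were seen in 78.7%, 84.8%, 80.6% and 68.5% of them in the same order. *Gata3* was found in 96.5% of the *Ccr9*+ cells of lung 1 and 100% of those of lung 2, but in 71.8% in MLN 1 and 69.6% in MLN 2. *Cd8a* and *Ms4a1* had no UMI in the *Ccr9*+ cells of any of the 4 libraries, and *Zbtb16*, the NKT regulator, was seen in 0, 0, 5 and 2 *Ccr9*+ cells of lung 1 and 2 and MLN 1 and 2. By *Gata3* the label of a Th2 cell held for nearly every member in the lung, while in the MLN a sizeable part of the members had no *Gata3* UMI.

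Members of the MLN were of more than one kind. *Plac8*, a marker the study used for effector Th2 cells, was seen without *Cxcr5* in 103 of 252 *Ccr9*+ cells of MLN 1 (40.9%) and 30 of 92 in MLN 2 (32.6%). *Cxcr5*, the receptor that takes follicular helper T cells to B-cell follicles, was seen without *Plac8* in 58 cells of MLN 1 (23.0%) and 14 of MLN 2 (15.2%), and 2 cells in each library had UMIs of both. Neither gene was seen in 89 (35.3%) and 46 (50.0%) of them. Levels are given below in counts per 1000000 UMIs of the summed cells (CPM), which say nothing of whether more cells or more RNA per cell carry a difference. Members with *Plac8* alone had 696 and 474 CPM of *Gata3* in MLN 1 and MLN 2, against 165 and 170 CPM in members with *Cxcr5* alone. *Il1rl1* stood at 93.9 and 104 CPM in the former and at 4.66 and 0 CPM in the latter. The 0 comes from the 14 such cells of MLN 2, too few to show absence. *Tcf7*, a regulator of less differentiated T cells, was at 124 and 144 CPM against 722 and 872 CPM. The level of *Ccr9* itself was 583 and 827 CPM in members with *Plac8* alone and 394 and 408 CPM in those with *Cxcr5* alone.

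In the lung 106 of 141 and 22 of 33 members had *Plac8* UMIs, and none of the 174 had a *Cxcr5* UMI, which allows up to 2.48 CPM of *Cxcr5* in lung 1 and 11.2 CPM in lung 2. *Cxcr5* was seen in 35 of 938 *Ccr9*- cells of lung 1 and in 4 of 375 of lung 2.

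*Ccr9*+ and *Ccr9*- cells were compared by summing the UMIs of each kind of cell in each library and fitting 9631 genes in 1 model with the library as a block. A gene is called where the edgeR quasi-likelihood test gave a Benjamini-Hochberg adjusted p under 0.05. The summed *Ccr9*+ cells of lung 1 and 2 held 1211949 and 267154 UMIs and those of MLN 1 and 2 1818212 and 633999, beside 7276195, 2481123, 12438341 and 3751437 UMIs of the *Ccr9*- cells in that order. In the MLN 469 genes were called (4.87% of those tested), 301 higher (3.13%) and 168 lower (1.74%) in *Ccr9*+ cells. In the lung 91 genes were called (0.945%), 33 higher (0.343%) and 58 lower (0.602%). Averaged over both organs, 362 genes were called (3.76%), 204 higher (2.12%) and 158 lower (1.64%). Without the library as a block the counts of MLN and lung were 168 and 15 genes. DESeq2 called 160 and 23.

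In the MLN 19 of 29 tested genes of effector and tissue-resident T cells were higher in *Ccr9*+ cells, and 11 of 14 genes of follicular helper T cells were lower. *Plac8* was at 667 CPM in *Ccr9*+ against 64.5 CPM in *Ccr9*- cells of MLN 1 and at 401 against 59.7 CPM in MLN 2 (log2 fold change 3.2 ± 0.11 SE, edgeR adjusted p = 1.63e-15). *Cysltr1*, a receptor for cysteinyl leukotrienes, was at 119 against 12.6 CPM and 83.6 against 17.3 CPM (2.99 ± 0.18, edgeR adjusted p = 2.23e-11). *Gata3* was at 450 against 176 CPM and 356 against 203 CPM (1.19 ± 0.10, edgeR adjusted p = 1.98e-08). For these 3 genes every *Ccr9*+ sum of the MLN lay above every *Ccr9*- sum, as for 16.7% of all genes tested. Of the 18 tested genes on a list of Th2 regulators and receptors 9 were higher and 0 lower, with a median log2 fold change of 0.32 beside 0.00 over all genes. They included *Il1rl1* (52.2 against 4.66 CPM and 47.3 against 10.1 CPM, log2 fold change 3.10 ± 0.23), *Pparg*, a lipid-sensing receptor (2.1 ± 0.33), and *Bhlhe40* (1.10 ± 0.20). *Il17rb*, the receptor chain for IL-25, was also higher (1.19 ± 0.19).

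On the list of effector and resident genes 1, *Anxa2*, was lower in the MLN and 9 were not called beside the 19 higher ones, with a median of 0.75. *Adam8*, a surface metalloprotease, rose from 9.73 to 89.1 CPM in MLN 1 and from 9.06 to 69.4 CPM in MLN 2 between *Ccr9*- and *Ccr9*+ cells (3.16 ± 0.17). *Itgae*, the integrin chain that binds E-cadherin of epithelium, was at 22.0 against 2.89 CPM and 20.5 against 5.06 CPM (2.65 ± 0.32). *Lgals1*, the most abundant member in *Ccr9*+ cells of MLN 1, was at 896 against 493 CPM and 640 against 349 CPM (0.92 ± 0.08). In MLN 2 *S100a10* was the most abundant, at 861 CPM in *Ccr9*+ and 686 CPM in *Ccr9*- cells. *Nmur1*, the neuromedin U receptor (3.46 ± 0.29), *Deptor*, an inhibitor of the mTOR kinase (3.35 ± 0.28), and the non-coding *1700061F12Rik* (2.99 ± 0.27) were among the 10 largest rises in the MLN by the naming rule, with edgeR adjusted p of 1.05e-08, 1.14e-08 and 4.04e-08. *Gzmb*, which encodes granzyme B, was at 265 against 29.7 CPM in MLN 1 and at 50.5 against 0 CPM in MLN 2 (3.40 ± 0.24), and *Gzma* at 95.7 against 22.1 CPM and 22.1 against 4.53 CPM (2.18 ± 0.22). In MLN 2 no *Gzmb* UMI was seen in 642 *Ccr9*- cells.

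Receptors that place T cells moved in both directions in the MLN. *Cxcr6* was at 390 against 101 CPM and 344 against 107 CPM (1.90 ± 0.10), and *Ccr2*, the receptor for monocyte chemoattractants, at 63.8 against 12.4 CPM and 42.6 against 14.9 CPM (2.18 ± 0.19). *Ccr7*, which holds T cells in lymph nodes, fell from 43.6 to 9.35 CPM and from 46.1 to 14.2 CPM (-2.0 ± 0.36). Of 12 chemokine receptors tested 4 were higher and 2 lower. Among 10 genes of node residence and egress 6 were lower, *Ccr7*, *S1pr1*, *Klf2*, *Tcf7* and *Lef1* among them, and *Il7r* (1.41 ± 0.13) and *Satb1* were higher. Of the α4β7 pair, *Itgb7* was higher (382 against 219 CPM and 347 against 232 CPM, 0.76 ± 0.09, edgeR adjusted p = 2.89e-06). *Itga4* was not called (86.9 against 80.9 CPM and 121 against 108 CPM, 0.18 ± 0.15, edgeR adjusted p = 0.696).

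Of 14 genes of follicular helper T cells 11 were lower in *Ccr9*+ cells of the MLN, with a median of -1.21, and 1, the costimulator *Icos*, was higher. *Cxcr5* was at 75.9 against 155 CPM in MLN 1 and 39.4 against 140 CPM in MLN 2 (-1.20 ± 0.15). *Pdcd1*, which encodes the inhibitory receptor PD-1, was at 86.9 against 215 CPM and 58.4 against 218 CPM (-1.44 ± 0.13). *Il21*, the helper cytokine for B cells, was at 2.75 against 13.5 CPM and 0 against 13.1 CPM (-2.70 ± 0.59, edgeR adjusted p = 0.00524). *Id3* (-1.23 ± 0.10), *Tox* (-1.34 ± 0.13), *Cd200* (-1.68 ± 0.19) and *Tox2* (-0.76 ± 0.12) were lower in the same way. *Padi4* (-3.42 ± 0.36), *Sostdc1* (-2.35 ± 0.26), *Gpm6b* (-2.30 ± 0.33), *Marcksl1* (-1.86 ± 0.21), *Tnfsf8* (-1.77 ± 0.16), *Ephx1* (-1.60 ± 0.15) and *Tubb2a* (-1.54 ± 0.24) were among the strongest falls.

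Cytokines of the MLN need a word on single cells. *Il13* was at 32.4 against 5.47 CPM in MLN 1 and at 273 against 14.4 CPM in MLN 2 (3.59 ± 0.24), but 1 of the 92 *Ccr9*+ cells of MLN 2 held 130 of their 173 *Il13* UMIs. The same cell, with 9185 UMIs, 2 of *Ccr9* and none of *Plac8*, held 112 of 114 *Csf2* UMIs, 56 of 58 *Il3* UMIs and 117 of 121 *Il2* UMIs. Without it *Il13* kept a log2 fold change of 2.48 with an edgeR adjusted p of 1.72e-12, while *Csf2* stood at 1.92 (edgeR adjusted p = 0.541, from 6.87 with it) and *Il3* at 4.55 (edgeR adjusted p = 0.140). *Il10* was at 10.4 against 2.01 CPM and 4.73 against 0.267 CPM (2.55 ± 0.51), *Il6* at 13.2 against 1.13 CPM and 9.46 against 1.87 CPM (3.21 ± 0.43), and *Areg*, an epidermal growth factor family member, at 34.1 against 7.40 CPM and 9.46 against 1.87 CPM (2.24 ± 0.26). *Il4*, whose transcription set the sorting gate, did not pass in either organ (edgeR adjusted p = 1 in the MLN and 0.172 in the lung), with 369 against 402 CPM in MLN 1 and 333 against 319 CPM in MLN 2.

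**Figure D1:**
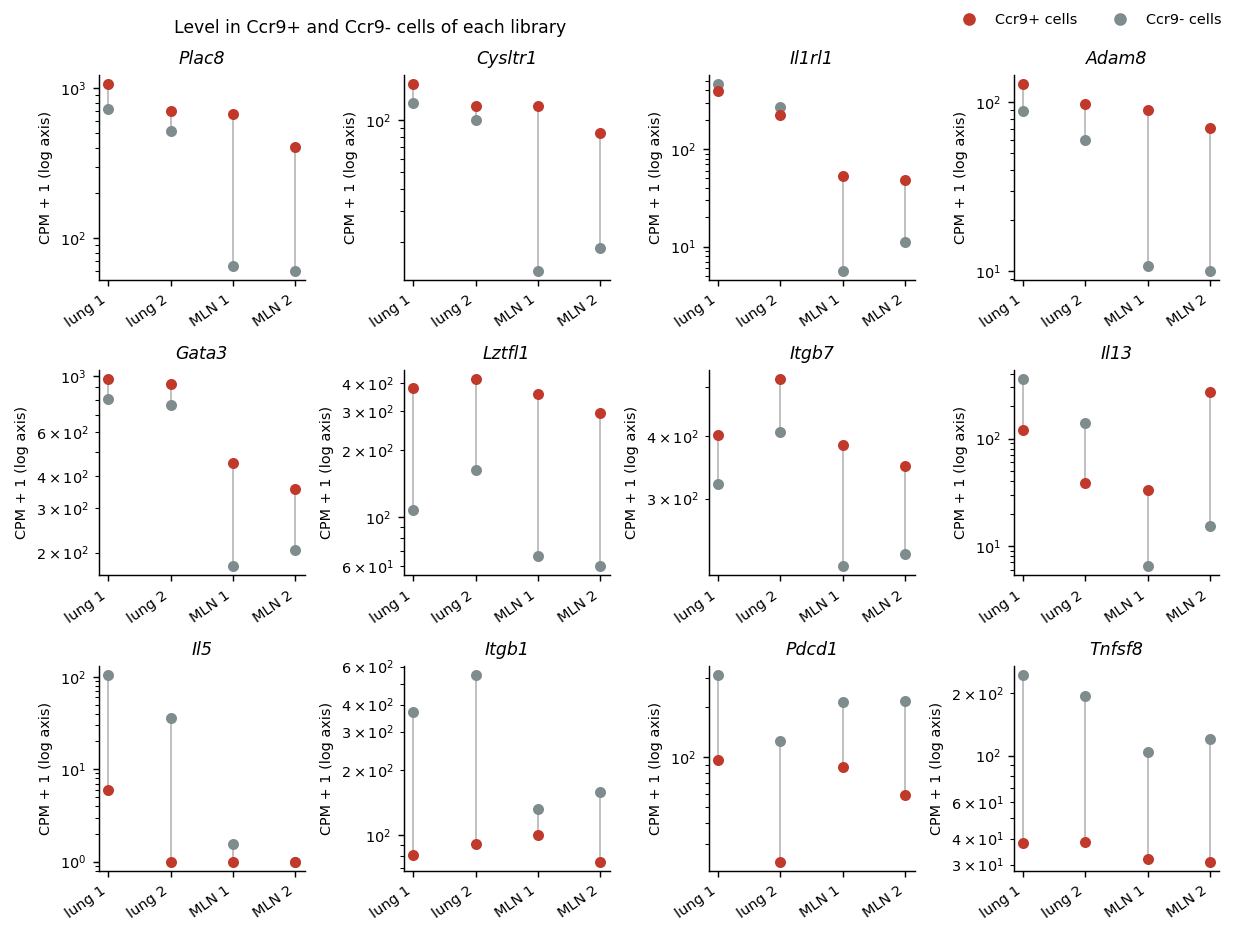
Level of 12 genes in the summed *Ccr9*+ (red) and *Ccr9*- (grey) cells of each library, as CPM plus 1 on a log axis, with a line joining the pair of each library. *Plac8*, *Cysltr1*, *Il1rl1* and *Adam8* show long gaps in MLN 1 and MLN 2 and short ones in the lung, *Lztfl1* a gap in all 4 libraries, and *Il5*, *Itgb1*, *Pdcd1* and *Tnfsf8* lie lower in *Ccr9*+ cells of the lung.

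The share of *Ccr9*+ cells among the cells with a UMI of a gene was taken as well. Of 194 cells of MLN 1 with a *Plac8* UMI 105 were *Ccr9*+ (54.1%), and of 65 in MLN 2 32 were (49.2%), beside 10.4% and 12.5% of all cells. The share was 58.0% and 51.4% among cells with *Il1rl1*, 64.4% and 58.8% with *Nmur1*, and 64.0% (16 of 25) and 75.0% (3 of 4) with *Il10*. It was lower for other genes, at 27.4% (29 of 106) and 16.7% (2 of 12) with *Gzma*, 34.5% (10 of 29) and 40.0% (4 of 10) with *Il13*, and 14.9% and 16.1% with *Gata3*. In the lung it was 17.2% and 11.1% among cells with *Plac8*, beside 13.1% and 8.09% of all cells. Deeper cells have a greater chance of UMIs of both genes, so these shares are a description. The direction of *Plac8* was also seen at equal depth: after thinning to 2000 UMIs, *Plac8* was found in 29.4% of *Ccr9*+ and 3.22% of *Ccr9*- cells of MLN 1, in 22.0% and 3.96% in MLN 2, in 61.0% and 42.2% in lung 1 and in 48.5% and 35.7% in lung 2.

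**Figure D2:**
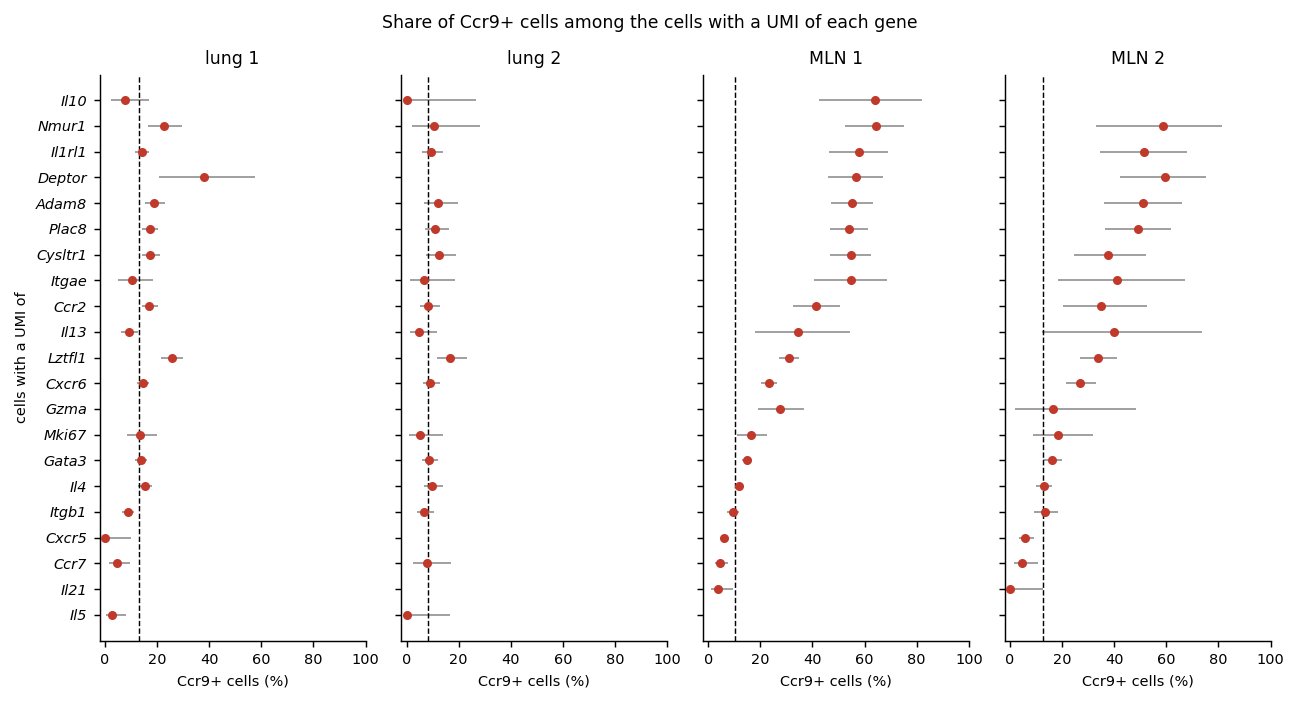
Share of *Ccr9*+ cells (x axis, percent) among the cells of each library that have a UMI of the gene named on the y axis, with exact 95% binomial intervals as lines and the share among all conventional cells as a dashed line. Points for *Nmur1*, *Il1rl1*, *Deptor* and *Plac8* lie far to the right of the line in MLN 1 and MLN 2, while *Cxcr5* and *Ccr7* lie to its left there, and points are missing where too few cells had the gene.

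*Plac8* was at 64.5, 576, 657 and 724 CPM in cells of MLN 1 with 0, 1, 2 and 3 or more *Ccr9* UMIs, and was found in 4.11%, 29.1%, 32.6% and 52.8% of them. In MLN 2 the values were 59.7, 259, 42.1 and 540 CPM, in 5.14%, 21.1%, 12.5% and 45.6% of the cells, so that the CPM of the 16 cells with 2 UMIs was no higher than that of *Ccr9*- cells. These are the cells just inside and just outside the limit of 1 UMI.

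Fewer genes were called in the lung than in the MLN, and most of those called were lower in *Ccr9*+ cells. The lung had 174 *Ccr9*+ cells and the MLN 344, so the counts of called genes are not on an equal footing. *Itgb1*, the β1 integrin chain that pairs with α4 to bind VCAM-1 and with other chains to bind matrix, was at 80.0 against 367 CPM in lung 1 and 89.8 against 548 CPM in lung 2 (-2.30 ± 0.15, edgeR adjusted p = 4.09e-10). *Il5*, the eosinophil growth factor, was at 4.95 against 103 CPM in lung 1 and 0 against 34.7 CPM in lung 2 (-4.47 ± 0.36, edgeR adjusted p = 3.04e-08). *Il5* UMIs were found in 3 of 174 *Ccr9*+ cells of the lung (1.72%) and in 120 of 1313 *Ccr9*- cells (9.14%). *Il13* was at 120 against 355 CPM and 37.4 against 139 CPM (-1.60 ± 0.20, edgeR adjusted p = 2.12e-05). For *Itgb1*, *Il5*, *Il13* and *Pdcd1* both *Ccr9*+ sums of the lung lay below both *Ccr9*- sums, as for 21.5% of all genes tested.

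Of 13 cytokine genes 2 were lower in the lung, *Il5* and *Il13*, and 1 was higher, *Calca*, which encodes a neuropeptide of T cells and nerves (399 against 299 CPM and 225 against 129 CPM, 0.52 ± 0.12, edgeR adjusted p = 0.0254). *Ramp1*, part of the receptor for that peptide, was at 6.60 against 87.5 CPM and 3.74 against 59.7 CPM (-3.75 ± 0.31, edgeR adjusted p = 3.04e-08), and was found in 7 of 174 *Ccr9*+ and 297 of 1313 *Ccr9*- cells. *Igfbp7* (-3.05 ± 0.27), the chemokine *Cxcl2* (-2.44 ± 0.21), the lectin *Lgals3* (-2.27 ± 0.26), the actin-capping *Capg* (-1.45 ± 0.13) and *Tnfsf8*, the CD30 ligand (-2.63 ± 0.17), were lower as well. With at most 10 UMIs of a gene per cell the fall of *Cxcl2* was smaller, at -1.12 (edgeR adjusted p = 0.00686). Of 8 listed genes of regulatory T cells 7 were tested and 3 were lower, the inhibitory receptors *Lag3* (-1.84 ± 0.26), *Tigit* (-0.98 ± 0.19) and *Ctla4* (-0.61 ± 0.11). *Foxp3* was seen in 1 *Ccr9*+ cell of the lung and MLN libraries of this run, in MLN 2. Of the list of follicular helper genes 5 of 14 were lower, with a median of -1.13 beside -0.02 over all genes, among them *Pdcd1* (95.7 against 313 CPM and 22.5 against 125 CPM, -1.77 ± 0.16) and *Rgs16* (-2.62 ± 0.37). The list says little about follicular helper cells in the lung, where 39 of 1313 *Ccr9*- cells had a *Cxcr5* UMI. *Pdcd1* was at 377 and 143 CPM in *Ccr9*- cells of lung 1 and 2 with *Plac8* alone, and at 144 and 0 CPM in those with *Cxcr5* alone. The paper links *Pdcd1* and *Rgs16* to cells with IL-5 and IL-13.

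Few genes were called higher in *Ccr9*+ cells of the lung. *Hs3st1*, a heparan sulfate sulfotransferase, was at 71.8 against 14 CPM in lung 1 and 120 against 4.03 CPM in lung 2 (3.09 ± 0.38, edgeR adjusted p = 1.60e-05), and 14 of 141 members of lung 1 had a UMI, 1 of them holding 25 of 87. *St3gal6*, a sialyltransferase of selectin ligands, was at 125 against 45.2 CPM and 150 against 72.1 CPM (1.34 ± 0.19, edgeR adjusted p = 0.000168), and *Actn2* at 64.4 against 25.7 CPM and 63.6 against 27.8 CPM (1.30 ± 0.22, edgeR adjusted p = 0.00143). *Rrad* (1.16 ± 0.16), *Rapsn* (1.15 ± 0.25), *Rasl11a* (1.24 ± 0.28) and the immunoglobulin-like receptor *Lilrb4a* (1.38 ± 0.29) rose too, as did the histone genes *Hist1h3b* (1.33 ± 0.33) and *Hist1h2ag* (1.28 ± 0.28). *Lilrb4a* and the histone genes have near-identical copies among which the counting could split reads, so their values are uncertain. *Rapsn*, *Rasl11a*, *Lilrb4a* and both histone genes lost their calls in several alternatives. *Plac8* was at 1065 against 729 CPM and 707 against 513 CPM (0.52 ± 0.10, edgeR adjusted p = 0.00707), and it lost its call in 5 alternatives, the log2 fold change being 0.30 against *Ccr9*- cells matched on UMIs. *Gata3* (967 against 811 CPM and 925 against 769 CPM, 0.26 ± 0.10, edgeR adjusted p = 0.358) and *Cysltr1* (160 against 125 CPM and 120 against 99.1 CPM, 0.35 ± 0.16, edgeR adjusted p = 0.554) were not called. *Gzmb* was called lower in the lung (11.6 against 69.3 CPM and 3.74 against 20.2 CPM, -2.56 ± 0.47) but its sign turned to 1.86 against cells matched on UMIs.

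Whether the effects differed between the organs was tested as a term of the same fit. The difference was called for 155 genes (1.61%), 20 with a higher effect in the lung (0.208%) and 135 with a higher effect in the MLN (1.40%). It was called for 17 genes without the library as a block, 58 with DESeq2, and 45 and 88 without MLN 1 and MLN 2. The effect of *Plac8* was smaller in the lung by a log2 difference of -2.68 ± 0.15 (edgeR adjusted p = 3.96e-11), that of *Cysltr1* by -2.64 ± 0.23, that of *Il1rl1* by -3.34 ± 0.26 and that of *Gata3* by -0.93 ± 0.14. *Il1rl1* was at 394 against 465 CPM and 221 against 267 CPM in *Ccr9*+ and *Ccr9*- cells of the lung. Of 29 effector and resident genes 17 had a lower signed effect in the lung and 0 a higher one, *Capg* among the 17 because it was lower in the lung, and among 14 follicular helper genes 1, *Tox*, differed. *Itgb1* fell further in the lung than in the MLN (difference -1.74 ± 0.21, edgeR adjusted p = 9.88e-06). Both organs called 53 genes, 42 in the same direction and 11 in opposite ones, while 416 were called in the MLN and not in the lung and 38 in the lung and not in the MLN. The 11 were *Bhlhe40*, *Crip1*, *Ctla4*, *Ehd1*, *Gm42418*, *Gzmb*, *Ifitm3*, *Il13*, *Lag3*, *Ltb4r1* and *Pparg*. *Ltb4r1*, the leukotriene B4 receptor, was at 38.0 against 131 CPM and 33.7 against 87.9 CPM in the lung (-1.70 ± 0.20), but at 18.7 against 4.34 CPM and 14.2 against 5.06 CPM in the MLN (1.98 ± 0.30). *Pparg* was at 23.1 against 66.5 CPM and 18.7 against 37.9 CPM in the lung (-1.43 ± 0.26).

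Higher in *Ccr9*+ cells of both organs were 16 genes, namely *Abcb9*, *Actn2*, *Frmd4b*, *Hs3st1*, *Ivns1abp*, *Kctd12*, *Lgmn*, *Lilr4b*, *Ly6e*, *Lztfl1*, *Nfil3*, *Phgdh*, *Plac8*, *Ptpn13*, *Rapsn* and *St3gal6*, and 26 were lower in both, including *Itgb1*, *Pdcd1*, *Tigit*, *Tnfsf8*, *Tox2*, *Rgs16*, *S1pr1* and *Tcf7*. *Nfil3*, a transcription factor of innate and Th2 cells, was at 82.5 against 43.7 CPM and 44.9 against 32.2 CPM in the lung (0.84 ± 0.20) and at 30.8 against 7.80 CPM and 31.5 against 9.86 CPM in the MLN (1.93 ± 0.23). *S1pr1*, the receptor that lets T cells leave tissue, was at 19.0 against 63.5 CPM and 82.3 against 110 CPM in the lung (-1.19 ± 0.24) and at 23.1 against 46.0 CPM and 33.1 against 47.4 CPM in the MLN (-0.79 ± 0.22). Of 16 proliferation genes 0 were called in the lung and 1, *Ccnb2*, was higher in the MLN, shares near those over all genes. Their summed level was 1053 against 909 CPM in *Ccr9*+ and *Ccr9*- cells of lung 1, 1591 against 1263 CPM in lung 2, 1018 against 826 CPM in MLN 1 and 555 against 870 CPM in MLN 2, so that MLN 2 went the other way.

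**Figure D3:**
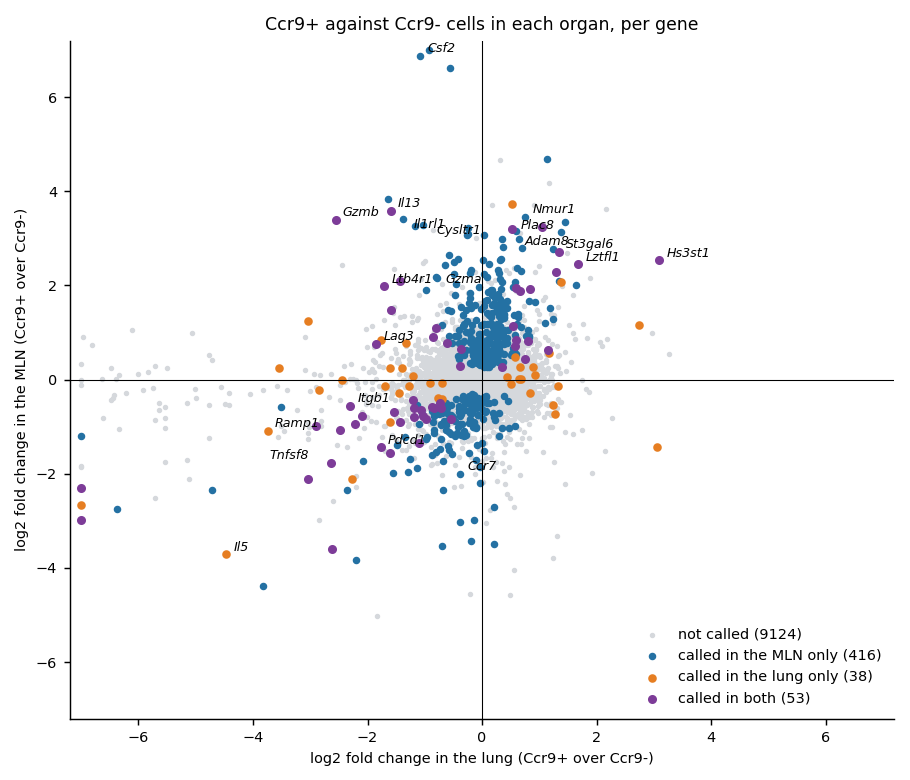
Log2 fold change of *Ccr9*+ over *Ccr9*- cells in the lung (x axis) and in the MLN (y axis) for each gene tested, with values beyond the axes drawn at the edge, coloured by where the gene was called. Genes called in the MLN and not in the lung, 416 in number, form a vertical band near 0 on the x axis, *Lztfl1*, *St3gal6* and *Hs3st1* lie high on both axes, and *Il13*, *Gzmb*, *Ltb4r1* and *Lag3* lie in the upper left.

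*Lztfl1* was higher in *Ccr9*+ cells of both organs and of every library. It was at 381 against 106 CPM in lung 1, 415 against 162 CPM in lung 2, 356 against 65.4 CPM in MLN 1 and 293 against 58.9 CPM in MLN 2 (1.68 ± 0.12 in the lung, edgeR adjusted p = 1.67e-09, and 2.45 ± 0.11 in the MLN, edgeR adjusted p = 2.87e-13). All 4 *Ccr9*+ sums lay above all 4 *Ccr9*- sums, as for 0.893% of all genes tested, and the effect was larger in the MLN (lung minus MLN -0.77 ± 0.16, edgeR adjusted p = 0.00616). *Lztfl1* encodes a regulator of ciliary transport that has also been tied to retinoic acid signalling in T cells. Among the members of MLN 1 it was at 405 CPM in cells with *Plac8* alone, 331 CPM in cells with *Cxcr5* alone and 305 CPM in cells with neither, and in the *Ccr9*- cells of MLN 1 at 251, 55.2 and 56.4 CPM. In MLN 2 the members' values were 339, 125 and 328 CPM and those of *Ccr9*- cells 220, 43.4 and 53.3 CPM. *Gata3* in *Ccr9*+ against *Ccr9*- cells was at 165 against 125 CPM in MLN 1 and 170 against 118 CPM in MLN 2 among cells with *Cxcr5* alone, and at 297 against 175 CPM and 339 against 213 CPM among cells with neither gene. *Il1rl1* was at 24.2 against 4.88 CPM and 20.3 against 9.40 CPM among cells with neither.

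*Lztfl1* is a neighbour of *Ccr9*. In GRCm38 *Ccr9* runs from chr9:123678439-123784330 on the plus strand, and *Lztfl1* from chr9:123694416-123717697 on the minus strand lies inside that span, with 0 exon bases in common. Whether the counting used strand is not given in the sources used here, so reads from introns of 1 gene and exons of the other cannot be told apart. Within 500 kb of *Ccr9* lie 27 other annotated genes, 16 of them protein-coding. Of the 27, 10 were tested, 9 of them protein-coding. Besides *Lztfl1*, *Cxcr6* and *Ccr2* were higher in the MLN with the values given above, and *Ccr1* was as well on few UMIs (3.85 against 0.322 CPM and 1.58 against 0.267 CPM, 3.29 ± 0.90, edgeR adjusted p = 0.0314). In the lung *Fyco1* was lower (9.08 against 25.2 CPM and 7.49 against 34.7 CPM, -1.61 ± 0.34, edgeR adjusted p = 0.0162). *Lars2*, *Limd1*, *Sacm1l* and *Gm39469* were called in neither organ, and other genes of the retinoic acid list, 6 of 7 tested, were not called in either.

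Among *Ccr9*+ cells alone, lung and MLN differed in 724 of 7598 genes (9.53%), 489 higher (6.44%) and 235 lower (3.09%) in the lung. With DESeq2 284 were called, 225 higher and 59 lower. *Gata3* was at 967 and 925 CPM in lung 1 and lung 2 and at 450 and 356 CPM in MLN 1 and MLN 2 (1.31 ± 0.17, edgeR adjusted p = 8.47e-05). *Il1rl1* was at 394 and 221 CPM in the lung and 52.2 and 47.3 CPM in the MLN (2.79 ± 0.27). *Plac8* was closer, at 1065 and 707 CPM against 667 and 401 CPM (0.84 ± 0.24, edgeR adjusted p = 0.0354), with lung 2 just above MLN 1. *Cysltr1*, *Itgb7* and *Itgb1* were not called, the log2 differences being 0.59 ± 0.23, 0.38 ± 0.17 and 0.01 ± 0.23.

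Immediate early genes stood out, with 14 of 19 higher in the lung and 0 lower. *Nr4a1*, a nuclear receptor induced by TCR signals and by tissue handling, was at 1128 and 573 CPM in the lung and 2.75 and 48.9 CPM in the MLN (5.79 ± 0.60, edgeR adjusted p = 8.76e-06), where 26 of the 31 UMIs of MLN 2 were in 1 cell, and *Fosl2* at 264 and 131 CPM against 1.65 and 3.15 CPM (6.73 ± 0.47). In *Ccr9*- cells *Nr4a1* was at 942 and 772 CPM in the lung and 34.5 and 26.4 CPM in the MLN, so the organ difference was not confined to *Ccr9*+ cells. *Calca* (543 UMIs in the lung and 1 in the MLN, ratio of CPM 900, exact interval 161 to 35622), *Rgs2* (397 and 2 UMIs, ratio 329, 90.5 to 2727) and *Ccr8*, a receptor of skin and lung Th2 cells (194 and 1 UMIs, ratio 322, 57.1 to 12769), were nearly absent from *Ccr9*+ cells of the MLN. The low levels in the MLN were not confined to *Ccr9*+ cells. In *Ccr9*- cells *Calca* had 2495 UMIs in the lung and 0 in the MLN, and *Rgs2* 2907 and 113. *Ccr8* was at 187 and 152 CPM in *Ccr9*- cells of lung 1 and 2 and at 1.13 and 2.93 CPM in those of MLN 1 and 2. Effector and resident genes were higher in the lung for 22 of 29 with 0 lower.

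Higher in the MLN were 7 of 11 follicular helper genes, *Cxcr5* by at least 32.8-fold (163 UMIs against 0) and *Id3* (161 and 159 CPM against 5.78 and 7.49 CPM, -4.56 ± 0.32). *Icos* of the same list was higher in the lung. Of 13 interferon response genes tested 9 were lower in the lung, *Ifit1* among them (1 UMI in the lung and 235 in the MLN, ratio 142, 25.2 to 5622). *Smtn*, which encodes smoothelin (1 and 202 UMIs, ratio 122, 21.6 to 4836), and *Gzma* (-4.13 ± 0.71, edgeR adjusted p = 0.00108) followed the same direction. For *Ifit1* the *Ccr9*- cells gave 7.56 and 11.3 CPM in the lung and 97.2 and 33.3 CPM in the MLN.

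The second run allowed the MLN comparison to be made in other mice. It held 1986 and 1998 cells of MLN 1 and MLN 2 and 2065 and 2012 of medLN 1 and medLN 2 after hashtag assignment, with 1242 doublets and 82 unassigned barcodes left out, and TCR chains were not used, so NKT cells were not removed. *Ccr9*+ cells were 9.21% and 14.2% of the cells of the MLN (183 and 283 cells) and 2.37% and 2.04% of those of the medLN (49 and 41 cells), without overlap between the nodes. *Zbtb16* UMIs were found in 2.19% and 3.53% of the *Ccr9*+ cells of the MLN and in 4.08% and 7.32% of those of the medLN, beside 0.41 to 0.89% of *Ccr9*- cells.

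In the MLN of the second run 1174 of 10958 genes were called (10.7%), 684 higher (6.24%) and 490 lower (4.47%). With DESeq2 267 were called, 185 higher and 82 lower. Of the 301 genes higher in the MLN of the first run 291 were tested, 283 had the same sign and 227 were called higher (78.0% of those tested, and 36.0% of the 631 higher genes of the second run tested in both). Of the 168 lower genes 159 had the same sign and 129 were called lower (76.8%, and 29.5% of the 438 of the second run). *Plac8* was at 689 against 144 CPM and 843 against 177 CPM (2.28 ± 0.11), *Lztfl1* at 296 against 66.7 CPM and 342 against 61.8 CPM (2.35 ± 0.13), *Il1rl1* at 79.2 against 6.85 CPM and 68.8 against 11.9 CPM (2.97 ± 0.20) and *Gata3* at 357 against 137 CPM and 334 against 140 CPM (1.34 ± 0.12). In these 4 genes both *Ccr9*+ sums lay above both *Ccr9*- sums, as for 21.4% of all genes tested. *Itga4*, not called in the first run, was higher here (220 against 175 CPM and 415 against 160 CPM, 0.93 ± 0.12, edgeR adjusted p = 8.16e-14), as was *Itgb7* (1.25 ± 0.11).

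Called in opposite directions in the MLN of the 2 runs were *Gm42418*, *Il2*, *Anxa2*, *Flna*, *Fos*, *Gm45552* and *Klf2*. *Klf2*, a regulator of T-cell egress, was at 22.0 against 53.7 CPM and 30.0 against 56.5 CPM in the first run and at 256 against 199 CPM and 407 against 216 CPM in the second. *Il13* was at 10.6 against 30.8 CPM and 140 against 115 CPM in the second run (0.00 ± 0.16, edgeR adjusted p = 0.993), with the mice on different sides. *Il5* was lower there in *Ccr9*+ cells (0.966 against 21.3 CPM and 1.79 against 6.68 CPM, -2.84 ± 0.54, edgeR adjusted p = 6.49e-06). B-cell genes were lower for 5 of 6 tested, *Cd79a* at 0 against 10.4 CPM and 0.894 against 20.1 CPM. Of 13 myeloid and antigen presentation genes tested 5 were lower (*Lyz2*, *Cd74*, *H2-Aa*, *H2-Ab1* and *H2-Eb1*) and 1, *Cst3*, was higher, with a median of -1.02. *Cd74* was at 90.8 against 171 CPM and 159 against 277 CPM. The part of these cells in the result was not tested.

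In the medLN, which drains the lung, 365 genes were called (3.33%), 148 higher (1.35%) and 217 lower (1.98%). With DESeq2 145 were called and the balance turned, to 80 higher and 65 lower. *Plac8* was at 959 against 97.1 CPM and 974 against 75.7 CPM (3.49 ± 0.12) and *Lztfl1* at 339 against 19.9 CPM and 260 against 24.4 CPM (3.77 ± 0.20). *Itgb1* was at 229 against 484 CPM and 158 against 369 CPM (-1.14 ± 0.17, edgeR adjusted p = 3.01e-09), while it was not called in the MLN of the same run (114 against 118 CPM and 90.3 against 88.0 CPM). *Il13* was at 0 against 135 CPM and 25.5 against 151 CPM (-3.61 ± 0.41, edgeR adjusted p = 7.84e-16). *Gzma* was at 1213 against 16.2 CPM and 959 against 25.8 CPM, beside the *Zbtb16* shares given above. With the cells that had a *Zbtb16* UMI left out its log2 fold change was 5.81 (5.71 with them), and 343 genes were called in the medLN and 1167 in the MLN. This removed 2 of 49 *Ccr9*+ cells of medLN 1 and 3 of 41 of medLN 2. NKT cells without a *Zbtb16* UMI stayed in, so the setting cannot show their part, which was not tested. Here too genes of other cells were lower, 2 of 6 B-cell genes (*Igkc* and *Jchain*) and 3 of 13 myeloid genes (*Lyz2*, *Cd74* and *H2-Eb1*), while *Cst3* was higher. Of 3 plasmacytoid dendritic cell genes tested, 1 was higher in *Ccr9*+ cells of each node and 0 were lower. It was *Siglech* in the MLN and *Bst2*, also on the interferon response list, in the medLN. The part of all these cells was not tested. Proliferation genes were lower for 11 of 16 in the medLN and higher for 9 of 16 in the MLN of that run. Of 8 listed genes of regulatory T cells *Foxp3* and *Ctla4* were higher and *Tigit* was lower in *Ccr9*+ cells of the medLN. In the MLN of that run *Ctla4* and *Lag3* were higher and *Tigit* was lower, while *Foxp3* was not called.

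**Figure D4:**
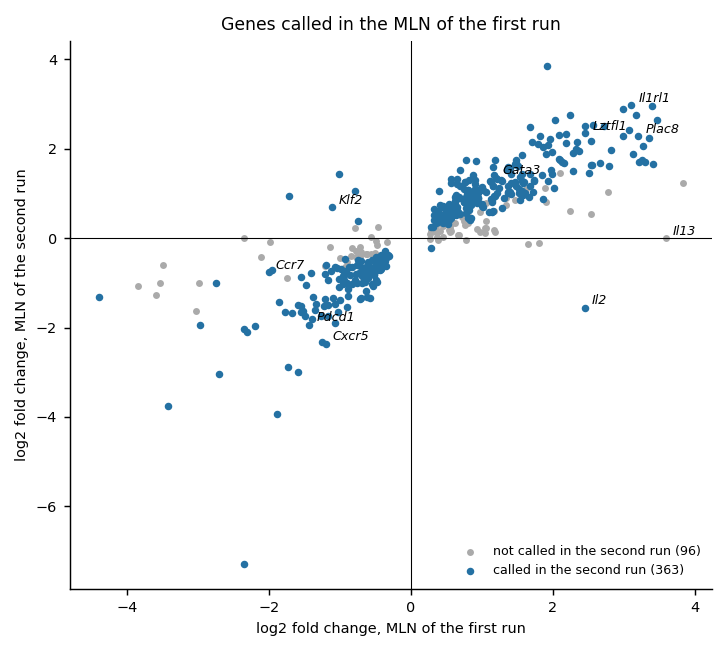
Log2 fold change of *Ccr9*+ over *Ccr9*- cells in the MLN of the first run (x axis) and of the second run (y axis) for the genes called in the first, blue where the gene was also called in the second (363) and grey where it was not (96). Most points lie in the upper right and lower left, *Il13* lies at 0 on the y axis, and *Il2* and *Klf2* lie in the other corners.

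A clone is a set of cells of 1 mouse with the same V and J segments and the same nucleotide CDR3, the stretch at the V-J or V-D-J junction, of all productive chains. The 4638 conventional cells formed 3851 clones, 479 with at least 1 *Ccr9*+ cell, and 335 *Ccr9*+ cells were alone in their clone. Of 537 clones of 2 or more cells 144 held a *Ccr9*+ cell, 30 held 2 or more and 14 consisted of *Ccr9*+ cells alone. *Ccr9*+ cells were found in both organs in 9 clones, all of mouse 1. The CDR3 sequences of the 3 of these clones with at least 3 *Ccr9*+ cells are shown as examples of clones with members in lung and MLN. Capitals mark the first and last codon, for the conserved cysteine and phenylalanine, and the rest is in lower case, 5′ to 3′, from the assembled chains:
clone 1 alpha: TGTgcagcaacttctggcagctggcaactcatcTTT
clone 1 beta: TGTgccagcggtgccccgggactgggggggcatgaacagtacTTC
clone 2 alpha: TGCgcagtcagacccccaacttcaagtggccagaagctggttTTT
clone 2 beta: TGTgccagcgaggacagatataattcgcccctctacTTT
clone 3 alpha: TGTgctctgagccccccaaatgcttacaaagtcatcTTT
clone 3 beta: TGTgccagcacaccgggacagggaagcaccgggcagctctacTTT

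Clone 1 had 7 cells, 3 in the lung and 4 in the MLN, and 6 of them were *Ccr9*+, 3 in each organ, the highest number of *Ccr9*+ cells in a clone. Its alpha chain of 36 CDR3 bases joined TRAV14D-2 (GRCm38 chr14:52948568-52949169) to TRAJ22 (chr14:54197248-54197307), and its beta chain of 45 CDR3 bases TRBV13-2 (chr6:41121396-41121832) to TRBJ2-7 (chr6:41543810-41543856), all on the plus strand. Clone 2 had 8 cells with 3 *Ccr9*+, 1 in the lung and 2 in the MLN, from TRAV3-3 and TRAJ16 with TRBV13-2 and TRBJ1-6. Clone 3 had 6 cells with 3 *Ccr9*+, 1 in the lung and 2 in the MLN, from TRAV9N-4 and TRAJ30 with TRBV13-1 and TRBJ2-2.

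*Ccr9*+ cells lay in clones shared by both organs more often than *Ccr9*- cells in each library when all chains defined the clone. The shares were 24.1% against 11.5% in lung 1, 21.2% against 6.67% in lung 2, 13.9% against 6.97% in MLN 1 and 3.26% against 2.96% in MLN 2. The mean was 15.6% ± 9.29 (SD, n = 4 libraries) against 7.03% ± 3.50, a difference of 8.59 percentage points seen in 4 of 4 libraries. An exact two-sided paired permutation test gave the smallest p that 4 libraries allow, 1 of 8, in a comparison that was chosen after seeing the data. In MLN 2 the intervals of the shares overlap almost wholly, and with the beta chain alone its direction turned, to 4.35% against 5.14%. Shares in clones of 2 or more cells were 44.0% against 36.9%, 24.2% against 21.3%, 39.7% against 29.1% and 14.1% against 13.2% in lung 1 and 2 and MLN 1 and 2, a mean difference of 5.37 percentage points in 4 of 4 libraries, again with a p of 1 of 8 in the exact test. Here too MLN 2 turned with the beta chain alone (26.1% against 28.2%). The 4 libraries are 2 mice with both organs each, so a shared clone counts in both organs.

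**Figure D5:**
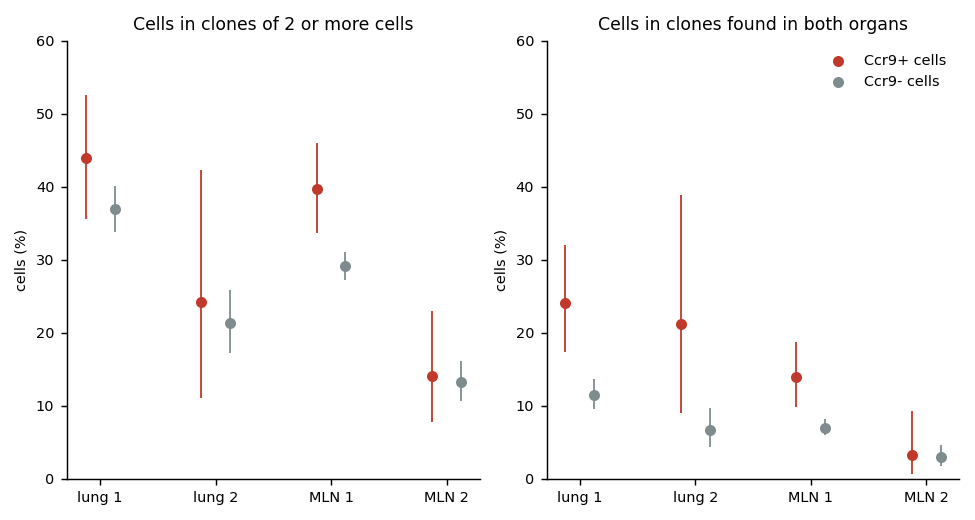
Percent of *Ccr9*+ (red) and *Ccr9*- (grey) cells of each library in clones of 2 or more cells (left) and in clones with cells in both organs (right), with exact 95% binomial intervals. The red point lies above the grey one in all 4 libraries of both panels, with intervals apart for both-organ clones in lung 1 and MLN 1 and overlapping in lung 2 and MLN 2.

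Clone mates of 1 library more often had the same *Ccr9* state in mouse 1. Taking each cell's clone mates in its own library, 70 of 246 mates of *Ccr9*+ cells were *Ccr9*+ (28.5%) and 176 of 1554 mates of *Ccr9*- cells were (11.3%). Of mates in the other organ 38 of 133 (28.6%) and 95 of 449 (21.2%) were *Ccr9*+. Clone 1 alone carried this cross-organ direction: without it the counts were 20 of 112 (17.9%) and 92 of 446 (20.6%), while within a library they were 58 of 231 (25.1%) and 173 of 1551 (11.2%). In mouse 2 the counts were 0 of 15 and 15 of 203 within a library, and 0 of 10 and 10 of 68 across organs, too few pairs to show whether the tie was present in that mouse. Pairs of mates share cells and are no replicates, and no test was made. In MLN 1, 21 of 105 members with *Plac8* lay in clones of both organs (20%), 14 of 147 without it (9.52%), 8 of 89 *Ccr9*- cells with *Plac8* (8.99%) and 143 of 2076 with neither (6.89%). In MLN 2 the counts were 0 of 32, 3 of 60, 3 of 33 and 16 of 609. In lung 1 the share was 24.5% of members with *Plac8* (26 of 106) and 22.9% of those without it (8 of 35), beside 12.9% and 9.86% of *Ccr9*- cells, and in lung 2 it was 7 of 22, 0 of 11, 9 of 176 and 16 of 199 in the same order. Among V segments with 20 or more *Ccr9*+ cells TRBV31 alone was used by a larger share of *Ccr9*+ than *Ccr9*- cells in all 4 libraries, 7.1% against 7.0%, 12.1% against 11.2%, 14.7% against 11.6% and 17.4% against 15.0%, gaps that are small beside the counting error.

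Markers of other cells were set beside these results. The summed level of 14 myeloid genes was 155 CPM in *Ccr9*+ against 199 CPM in *Ccr9*- cells of lung 1, 228 against 176 CPM in lung 2, 213 against 176 CPM in MLN 1 and 352 against 276 CPM in MLN 2, with *Cst3* the most abundant. *Cst3* was called higher in the MLN (139 against 94.4 CPM and 147 against 99.2 CPM, 0.61 ± 0.12). *C1qa*, *C1qb*, *C1qc*, *Csf1r* and *Lyz2* had no UMI in *Ccr9*+ cells of the lung. Genes of the exocrine pancreas, a tissue that lies next to the MLN, summed to 26.8 CPM in *Ccr9*+ and 122 CPM in *Ccr9*- cells of MLN 2, to 12.1 and 1.45 CPM in MLN 1 and to 0 in *Ccr9*+ cells of the lung. Of the 8 B-cell genes *Ighm* gave nearly all UMIs, at 143 against 84.2 CPM, 135 against 123 CPM, 210 against 240 CPM and 256 against 262 CPM in lung 1 and 2 and MLN 1 and 2. The part of these other cells in the results was not tested.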

How the data were processed

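The deposited files hold UMI counts per gene and barcode and assembled TCR contigs, made by the authors with Cell Ranger (versions 2.1.1 and 3.0.1 for the first run, 6.1.2 for the second, per the submitters' processing notes, genome mm10) and not normalized. Whether strand was used in the counting is not given in the sources used here. Contigs were used where productive. The members and gene lists were chosen with earlier results of these data known. UMIs were summed per library and *Ccr9* state, from 267154 to 12438341 per sum. Genes past edgeR's filterByExpr were fitted with edgeR 4.0.16 (R 4.3.3, limma 3.58.1; TMM, quasi-likelihood F test, two-sided) with the library as a block, which pairs the *Ccr9*+ and *Ccr9*- cells of the same animal and library. Deviations of the pairs from their group means correlated at 0.10 in the lung and 0.21 in the MLN. This fit left 2 residual degrees of freedom, beside a median of 21.3 that edgeR took from the other genes. Its small p-values therefore rest mostly on the shared spread and not on the mice alone. p-values were adjusted by Benjamini-Hochberg over all genes tested. The 4 *Ccr9*+ sums were fitted alone for lung against MLN, without a mouse block, since deviations of the same mouse correlated at -0.02. The matrix of the second run pools reporter-positive and reporter-negative cells, and barcodes ending in 1 were taken as reporter-positive because that number ends the sample's title. The second run was assigned to samples by HTODemux of Seurat 5.3.0 from the deposited hashtag counts and fitted in the same way, where edgeR gave an infinite prior so that genes share 1 estimate of the spread. No doublet caller was run on the first run. Instead cells with extra TCR chains were left out in an alternative. Cells were thinned to 2000 UMIs with a fixed seed. Shares have exact Clopper-Pearson 95% intervals, and the floor for a count of 0 is 3 counts. Exact tests were two-sided (SciPy 1.17.1). DESeq2 1.42.0 and further settings were alternatives. Those on single cells (10 UMIs of a gene at most per cell, and without 1 cell of MLN 2), on the definition of a clone for clones in both organs, and without clone 1, like the comparison of clones in both organs itself, were chosen after seeing the data. The fits were tested on simulated data.

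Genes named are, per organ, the 10 highest and 10 lowest log2 fold changes among called genes that average 20 CPM or more and move the same way in both mice, the 5 highest and 5 lowest for the difference and for lung against MLN, *Plac8*, *Cysltr1* and *Gata3*, the most abundant members of each list, and all tested genes within 500 kb of *Ccr9*. A few genes are not reported here. Other genes named were chosen after their values were seen. Between libraries at most 0.779% of the smaller library's barcodes were shared.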

Additional observations from a re-analysis of the deposited data

Results flagged for a closer look

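The *Ccr9* effect differed between lung and MLN for 155 genes by the edgeR test of the difference, for 17 without the library as a block and for 58 with DESeq2. Of the named genes, with differences as lung minus MLN on the log2 scale, those of *Plac8* (-2.68), *Cysltr1* (-2.64), *Gata3* (-0.93), *Il1rl1* (-3.34), *Adam8* (-2.58), *Nmur1* (-2.71), *1700061F12Rik* (-2.35), *St3gal6* (-1.38) and *Lztfl1* (-0.77) were larger in the MLN. *Itgb1* (-1.74) and *Ramp1* (-2.66) were lower by more in the lung. *Gzmb* (-5.96), *Lag3* (-2.60) and *Il13* (-5.18) were called lower in the lung and higher in the MLN. *Csf2* (-7.95) and *Il3* (-10.23) rest on 1 cell of MLN 2, and *Ifit1* (-3.80) on 1 UMI in *Ccr9*+ cells of the lung. *Rgs2* (2.84), *Hist1h2ag* (2.02), *Marcksl1* (1.82), *Evi2a* (1.56) and *Nusap1* (1.54) had the higher signed effect in the lung. The value of *Rgs2* rests on 2 UMIs in *Ccr9*+ cells of the MLN. That of *Hist1h2ag* was 1.18 (edgeR adjusted p = 0.222) with at most 10 UMIs of a gene per cell.

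Outside the cells described, 44 of the 76 cells with the invariant TCR alpha chain had a *Ccr9* UMI (57.9%), beside 11.2% of the conventional cells.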

How the results depend on the processing

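With 2 mice an organ and 33 *Ccr9*+ cells in lung 2, the counts of called genes depend on the processing. DESeq2 called 23 genes in the lung, 160 in the MLN, 142 for the mean of both organs, 58 for the difference, 284 for lung against MLN, and 267, 145 and 325 in the second run for MLN, medLN and their mean. Without the replicate block the first 4 counts were 15, 168, 123 and 17, and those of medLN and the mean in the second run 178 and 444. With the mouse as a replicate block lung against MLN gave 908 genes. Against *Ccr9*- cells matched on UMIs the counts were 44, 281, 177 and 101, and with cells thinned to 2000 UMIs 35, 262, 147 and 79. Without a filter on low counts the lung gave 149. Leaving out 1 library at a time gave 53 to 156 genes in the lung, 95 (without MLN 1) to 670 in the MLN, 129 to 456 for the mean, 45 to 222 for the difference, 260 (without lung 1) to 1047 for lung against MLN, 330 (without MLN 2) to 1223 and 163 to 359 for MLN and medLN of the second run, and 402 to 581 for their mean. With at most 10 UMIs of a gene per cell the first 4 counts were 102, 629, 539 and 195. The cause of these shifts was not tested, beyond the fewer samples or UMIs of a setting. *Ccr9*+ shares in lung 1, lung 2, MLN 1 and MLN 2 were 9.92%, 5.15%, 7.16% and 9.95% at 2 or more UMIs and 7.79%, 4.50%, 6.80% and 8.85% after thinning.

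Signs turned in the lung for *Sacm1l* (-0.12 with DESeq2, -0.97 to 0.26 leaving out 1 library), *Marcksl1* (0.046 without the block, 0.33 without cycling cells, 0.036 capped per cell, -0.69 to 0.077 leaving out 1 library), *Ccr2* (-0.028 matched, -0.017 to 0.12), *Gm39469* (0.068 at 2 UMIs, -7.66 to 0.22), *Limd1* (-1.53 to 0.24), *Cxcr6* (-0.029 thinned) and *Gzmb* (1.86 matched, edgeR adjusted p = 0.616). In the MLN they turned for *Gm39469* (-0.032 to 0.17, -0.0010 without cells with extra chains, -0.023 without the *Csf2* cell), *Lars2* (-0.088 matched, -0.014 without extra chains, -0.043 capped), *Fyco1* (-0.11 thinned) and *Limd1* (-0.056 thinned, -0.12 without cycling cells). Of these, *Gzmb* in the lung was called by the reported fit. *Il3* could not be fitted in the MLN without MLN 2, where alone it had UMIs. Over the named genes and settings, 474 values kept their sign and their side of the threshold in the lung, genes not called by the reported fit included, 90 lost the call and 13 turned. In the MLN these were 478, 30 and 9, for the difference 140, 51 and 0, and for lung against MLN 88, 2 and 0. The lung values of *Lztfl1*, *Itgb1*, *Ramp1* and *Tnfsf8*, and the MLN values of *Plac8*, *Cysltr1*, *Gata3*, *Il1rl1* and *Lztfl1*, kept their sign and call in every setting run. Clone shares differed by 4.81 and 8.96 percentage points (more than 1 cell, both organs) with the beta chain alone, higher in 3 of 4 libraries, MLN 2 being the exception.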
